A study of Mus musculus with 8 samples.

Results

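This report describes 8 mouse genes that make, inactivate or sense prostaglandin E2: Pla2g4a, Ptgs1, Ptgs2, Ptges, Ptges2, Ptges3, Hpgd and Ptger4. They were taken by symbol from the 39179 genes of the deposited count table, where each occurs once. They were chosen with the antibody contrast of these same libraries in view, so their differences between the arms are given as a description and support nothing further. Of the 8 genes, 7 had enough counts to enter the fit of 13626 genes, and Hpgd did not.

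The libraries hold polyA RNA of epithelial cancer cells from the mouse pancreas, of an FVB/B6 mix background, whose genotype includes p48Cre, ROSA_rtTAL+ and p53L+. These are a Cre recombinase driven in the pancreas lineage, the rtTA transactivator of tetracycline-controlled genes, and an allele of p53. GFP-labelled cancer cells shared a culture for 72 h with RFP-labelled pancreatic stellate cells in 0.5% dialyzed serum and were then separated by flow sorting, and only the cancer cells were sequenced. The SHH antibody arm had 4 libraries from cultures given 20 µg/mL of a neutralizing antibody to sonic hedgehog (SHH, a ligand through which epithelial cells signal to stroma), and the no antibody arm had 4 libraries from cultures without it. The labels call the 4 of each arm biological replicates. Every library of both arms therefore comes from cells of the same genotype grown beside stellate cells. Whether the cancer cells are 1 clone, and whether doxycycline was present, is not given in the sources used here, and no control antibody is named.

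Prostaglandin E2 is made in steps. A phospholipase frees arachidonic acid from membranes, a cyclooxygenase turns it into prostaglandin H2, and a terminal synthase turns that into prostaglandin E2, which acts on receptors of nearby cells until a dehydrogenase inactivates it. The cyclooxygenase made by Ptgs1 is known as the steady form and that of Ptgs2 (COX-2) as the inducible form, and COX-2 is commonly raised in pancreatic and other epithelial tumours.

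The transcripts of 1 enzyme at each step of synthesis were lower with the antibody: Ptgs2, whose mean went from 799 to 413 CPM (counts scaled to the size of the library), Ptges, from 15.84 to 11.71 CPM, and Pla2g4a, from 151.7 to 125.5 CPM. The alternative enzymes Ptgs1, Ptges2 and Ptges3 did not pass the test, nor did the receptor gene Ptger4. In the fit across all genes 3 of the 7 members tested were called (quasi-likelihood test of edgeR, with adjusted p under 0.05 after Benjamini and Hochberg), all lower, where 8.4% of all genes tested were called, 3.87% as lower and 4.53% as higher. The members' median log2 fold change was -0.13, against -0.004 over all genes tested. No overlap in CPM between the arms was seen in 4 of the 7, in 3 of them lower and in 1 higher with the antibody, where this held for 14.3% of all genes tested, 6.56% lower and 7.71% higher. These shares are a background only, because the members were chosen on this contrast.

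The upstream sequence of Ptgs2 is shown because a second transcript that starts beside it, described further on, was also lower. The first line gives the 250 bases before the RefSeq start of Ptgs2 on the plus strand (chr1:150099781-150100030, GRCm38.p6). The second gives 30 bases just inside that start (chr1:150100036-150100065), which lie upstream of the start in the deposited table, since that start is 93 bases further on. The third gives the same 250-base stretch before the start of Ptgs1 on the plus strand (chr2:36230176-36230425), the other cyclooxygenase, as a comparison. Capitals mark matches to TTGCGCAA, CACGTG and TGACG, described in the next paragraph.
Ptgs2 upstream: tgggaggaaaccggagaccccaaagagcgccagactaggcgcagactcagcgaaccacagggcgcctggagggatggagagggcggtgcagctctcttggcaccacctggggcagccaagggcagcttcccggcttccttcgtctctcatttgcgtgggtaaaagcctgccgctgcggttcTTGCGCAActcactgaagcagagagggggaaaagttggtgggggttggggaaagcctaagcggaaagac
Ptgs2 site after the RefSeq start: caccactaCGTCACGTGgagtccgctttac
Ptgs1 upstream: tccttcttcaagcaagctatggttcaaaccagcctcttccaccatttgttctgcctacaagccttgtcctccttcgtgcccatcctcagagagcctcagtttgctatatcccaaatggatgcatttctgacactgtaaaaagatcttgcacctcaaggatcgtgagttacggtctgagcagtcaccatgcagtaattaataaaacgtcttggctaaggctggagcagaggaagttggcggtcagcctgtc

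All 8 members had a RefSeq promoter entry (Pla2g4a had 2), and motifs were searched on both strands in windows of 300 bases, of which 250 lie before the start. The palindrome TTGCGCAA, a form bound by C/EBP factors, occurred in the Ptgs2 window and in no other member's, and in 0.185% of the 27025 promoters searched, 1 for each gene, with 1 chromosome left out. An E-box, CACGTG, began at base 17 after the Ptgs2 start and overlapped TGACG, the core of cyclic AMP response elements, read on the minus strand. The E-box occurred in 7.24% of all promoters and in the windows of Ptgs2 and Ptges2, and TGACG in 21.02% and in those of Ptgs2 and Ptges3. The AP-1 motif TGANTCA (7.93% of promoters), an NF-kB motif (1.62%) and the GLI form TGGGTGGTC (0.244%) matched in no member's window. The Ptgs1 stretch held no match to any motif searched, also not to TATAAA (14.2% of promoters) or GGGCGG (35.9%). GGGCGG, the GC box, occurred in the windows of 5 members, that of Ptgs2 among them (at -170, in lower case in the printed line). A match is a description of the letters, not of binding.

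The 3' untranslated region of Ptgs2 is known for AU-rich elements, which shorten the life of the mRNA. In the GENCODE M21 transcript with the longest such region (2445 bases) the pentamer ATTTA occurred 14 times, more often than in 97.1% of 11415 tested genes. It occurred 4 times in the 30 bases that begin at base 12 of the region, shown with each pentamer in capitals.
Ptgs2 AU-rich site: ccatATTTATTTATTTAtgtgaagaATTTA
Per kilobase the count was 5.73 for Ptgs2 and 9.03 for Pla2g4a, where the median gene had 1.37, and these densities exceeded those of 95.8% and 99.2% of genes. Hpgd had 4.77 per kilobase, Ptger4 4.06, Ptges3 3.37 and Ptges2 1.16, and Ptges and Ptgs1 had none. By count Pla2g4a had 4 pentamers in a region of 443 bases, more than in 68.8% of genes. The densities of Hpgd, Ptger4 and Ptges3 exceeded those of 93.2%, 89.8% and 84.2% of genes. So of the 3 members that were lower with the antibody, Ptgs2 and Pla2g4a are dense in this pentamer and Ptges lacks it, and members that were not called are dense in it too.

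The levels of the members lay far apart. On the deposited RPKM scale, which is per gene length, Ptgs2 stood at 90.3, 96.6, 93.7 and 118.9 with the antibody and at 233.6, 185.6, 172.4 and 175.7 without. It lay above 97.7% of all genes tested by mean RPKM. The order of mean RPKM over the 8 libraries was Ptgs2 (145.9), Ptges3 (57.8), Pla2g4a (21.7), Ptgs1 (12.4), Ptges2 (8.10), Ptges (3.50), Ptger4 (0.376) and Hpgd (0.0491). The ranges of neighbours in this order did not overlap for any pair. In CPM, which is not per length, the means of Ptges3 and Pla2g4a were close to each other.

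**Figure D1:**
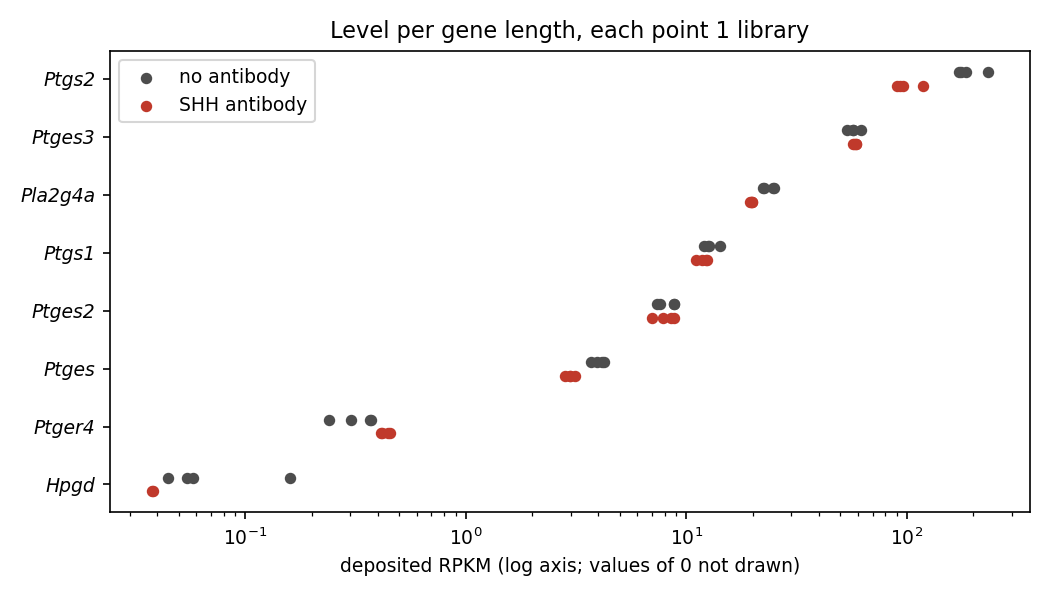
Deposited RPKM on a log axis for the 8 genes, each point 1 library, grey without and red with the SHH antibody; values of 0 are not drawn. Ptgs2 is the most abundant, at 90.3 to 233.6 RPKM, and Ptgs1 stays between 11.1 and 14.2 RPKM.

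The phospholipase step was described by Pla2g4a, which encodes cytosolic phospholipase A2, the enzyme that releases arachidonic acid (ENSMUSG00000056220, chromosome 1, 149829618 to 149961290, minus strand, GRCm38). Its level was 122.7, 125.2, 126.4 and 127.7 CPM with the antibody and 144.9, 157.8, 143.9 and 160.1 CPM without. The arms did not overlap, and the 4 antibody libraries were close together (125.5 ± 2.11 CPM, SD, n = 4) while the others spread more (151.7 ± 8.48 CPM, SD, n = 4). The log2 fold change was -0.27 ± 0.05 SE, which is 1.21-fold lower (95% interval 1.13 to 1.30).

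At the cyclooxygenase step Ptgs2 fell and Ptgs1 did not pass the test. Ptgs2 (ENSMUSG00000032487, chromosome 1, 150100124 to 150108010, plus strand, GRCm38) had 5767, 6298, 5885 and 7364 counts with the antibody and 12601, 7697, 7621 and 10628 without. Scaled to library size these were 371, 400.0, 387 and 494 CPM against 982, 771, 714 and 728 CPM. The arms did not overlap. Replicate 4 was the highest of the antibody arm and replicate 1 the highest of the other.

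The mean of Ptgs2 was 413 ± 55.4 CPM with and 799 ± 125 CPM without the antibody (SD, n = 4 each). Its log2 fold change was -0.95 ± 0.09 SE, or 1.93-fold lower (95% interval 1.70 to 2.19). Among all genes tested 22 had a log2 fold change this low or lower, Ptgs2 included. Of the 2539 genes whose mean reached 100 CPM, Ptgs2 had the lowest log2 fold change. Replicate 1 without antibody also had the highest share of counts in mitochondrially encoded mRNAs, and without it the log2 fold change of Ptgs2 was -0.84.

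Ptgs1 (ENSMUSG00000047250, chromosome 2, 36230426 to 36252272, plus strand, GRCm38) stood at 42.78, 48.45, 45.54 and 47.78 CPM with the antibody and at 56.03, 49.08, 46.65 and 49.5 CPM without. The arms overlapped, with replicate 1 the highest library without antibody, as for Ptgs2. The log2 fold change was -0.13 ± 0.06 SE, and the 95% interval of the fold, antibody over none, reached from 0.836 to 1.00. A fall of Ptgs1 as large as that of Ptgs2 lies outside this interval.

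Within each library Ptgs2 made up most of the cyclooxygenase mRNA per length. Of the summed RPKM of the pair it took 89.3% ± 0.938 with the antibody and 93.7% ± 0.438 without (SD, n = 4 each). The ratio of Ptgs2 to Ptgs1 RPKM was 8.13, 7.74, 7.97 and 9.70 with the antibody and 16.4, 14.7, 14.3 and 13.8 without. No library of the first arm reached the lowest of the second.

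Of the terminal prostaglandin E synthases, Ptges fell and the other two did not pass the test. Ptges encodes microsomal prostaglandin E synthase 1, the inducible form that is often raised together with COX-2 (ENSMUSG00000050737, chromosome 2, 30889471 to 30929863, minus strand, GRCm38). Its counts were 181, 175, 177 and 185 with the antibody and 217, 163, 166 and 213 without. After scaling they were 11.64, 11.11, 11.65 and 12.42 CPM against 16.91, 16.33, 15.55 and 14.58 CPM, with no overlap between the arms. The log2 fold change was -0.43 ± 0.09 SE, or 1.35-fold lower (95% interval 1.19 to 1.53).

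Ptges2, which encodes microsomal prostaglandin E synthase 2, ranged from 14.2 to 17.6 CPM with the antibody and from 14.99 to 18.0 CPM without the antibody. The log2 fold change was -0.02 ± 0.09 SE (95% interval of the fold, antibody over none, 0.862 to 1.12). Ptges3, better known as p23, a co-chaperone of the heat shock protein HSP90 that also has prostaglandin E synthase activity, ranged from 124.9 to 131.3 CPM with and from 118.8 to 138.0 CPM without the antibody. For this gene the log2 fold change was 0.00 ± 0.05 SE (95% interval of the fold 0.933 to 1.08). For both genes the arms overlapped widely.

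HSP90 and its co-chaperones were listed beside Ptges3 for its chaperone role. Of 15 genes tested 1 was called, where 8.4% of all genes tested were. It was Fkbp5, an immunophilin that is also a target of the glucocorticoid receptor, which rose with the antibody. It stood at 70.75 ± 2.86 CPM with and 57.95 ± 3.87 CPM without (SD, n = 4 each; log2 fold change 0.29 ± 0.06 SE, edgeR adjusted p = 0.00204). The list's median log2 fold change was -0.02.

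**Figure D2:**
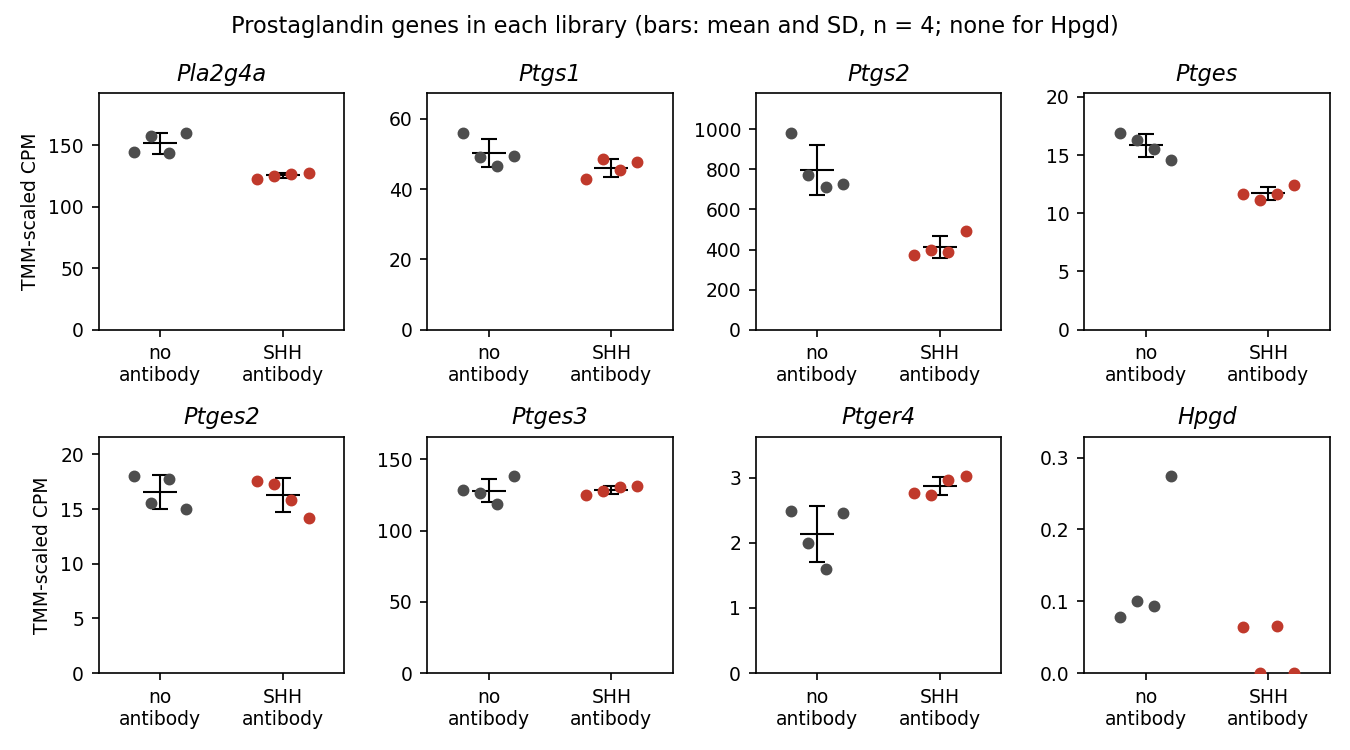
TMM-scaled CPM of the 8 genes, each point 1 library, with the mean and SD of 4 libraries as bars (none for Hpgd, which had 0 to 4 counts per library). The arms do not overlap for Ptgs2, Ptges and Pla2g4a, which are lower with the antibody, and for Ptger4, which is higher. Those of Hpgd do not overlap either, being lower with the antibody, but at counts too few to judge.

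On the side of response and removal, Ptger4 was the one prostaglandin E2 receptor gene among the members and Hpgd the gene of the inactivating enzyme. Ptger4 encodes the receptor EP4, which raises cyclic AMP (ENSMUSG00000039942, chromosome 15, 5206661 to 5244187, minus strand, GRCm38). It had 43, 43, 45 and 45 counts with the antibody and 32, 20, 17 and 36 without. In CPM these were 2.766, 2.731, 2.962 and 3.02 against 2.494, 2.003, 1.592 and 2.465. Every antibody library was above every other library, yet the gene did not pass the test across all genes (log2 fold change 0.40 ± 0.19 SE, 95% interval of the fold 1.01 to 1.72). Its span shares 11676 bases with Ttc33 on the other strand, and no source used here says if strand was used in counting, so these few counts are uncertain.

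Hpgd encodes 15-hydroxyprostaglandin dehydrogenase (ENSMUSG00000031613, chromosome 8, 56294552 to 56321046, plus strand, GRCm38). It had 1, 0, 1 and 0 counts with the antibody and 1, 1, 1 and 4 without. In CPM it stood at 0 to 0.0658 with and 0.0779 to 0.2739 without the antibody, which do not overlap. A count of 3, the number that an observed 0 still allows, is worth between 0.191 and 0.30 CPM in these libraries, counting error only. No difference could therefore be judged at this depth.

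Around the members, 58 other eicosanoid genes were listed, and 23 had enough counts to be tested. The lists cover arachidonate release, prostanoid synthesis, reception and transport, and a mixed list of lipoxygenase, leukotriene and related genes. None was called (edgeR), where 8.4% of all genes tested were. At an unadjusted p under 0.05 there were 6 higher and 1 lower. The share of all genes at that unadjusted threshold is not given here, so these counts are no result about the list. Log2 fold changes lay between -0.29 and 0.68 with a median of 0.05, and 17 of the 23 were positive. Limma voom also called 0 of them, and DESeq2 called Anxa1, which encodes the phospholipase inhibitor annexin A1, as higher (log2 fold change 0.13, adjusted p = 0.0102). Without replicate 1 of the no antibody arm, 4 were called, all higher: Ptgr1, Faah, Hpgds and Anxa1. More genes were called in that setting over the whole data too, 1485 of 13747 tested, and DESeq2 called 1026 of 13097.

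Among 9 tested genes of arachidonate release and reacylation the highest in CPM was Acsl4, which activates arachidonic acid for storage in lipids, at 447 ± 11.3 CPM with and 420.0 ± 27.9 CPM without the antibody (SD, n = 4 each; log2 fold change 0.09 ± 0.05 SE, edgeR adjusted p = 0.318). Pla2g6, another intracellular phospholipase A2, stood at 84.44 ± 2.76 against 86.79 ± 5.86 CPM and was named after its values were seen. Per length Anxa1 was higher (mean RPKM 154.6, against 80.1 for Acsl4). Among 6 other terminal synthases the highest in CPM over both arms was Akr1b3, an aldose reductase with prostaglandin F synthase activity, at 14.67 ± 0.894 against 17.21 ± 2.65 CPM (edgeR adjusted p = 0.161). Per length Cbr1, a carbonyl reductase, was higher (mean RPKM 11.5, against 4.05 for Akr1b3). Leaving out replicate 3 of the no antibody arm made Akr1b3 pass the test as lower (log2 fold change -0.33, edgeR adjusted p = 0.0233).

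Prostaglandin receptors other than Ptger4 were scarce. Of 8 listed, 4 had no count in any library, 3 had at most 2 counts, and Ptger1, the gene of the receptor EP1, stood at 0.895 ± 0.190 with and 0.611 ± 0.327 CPM without the antibody (log2 fold change 0.56 ± 0.36 SE, edgeR adjusted p = 0.397). By contrast, all 5 transport and inactivation genes were tested. The most abundant was Abcc4, an exporter of prostaglandins, at 198.2 ± 6.69 against 195.9 ± 16.6 CPM. Slco2a1, the prostaglandin importer (chosen after its values were seen), stood at 58.95 ± 2.92 against 61.91 ± 2.14 CPM. Of 15 genes listed with the lipoxygenases and leukotriene genes 2 were tested, Lta4h and the epoxide hydrolase gene Ephx2. Lta4h, leukotriene A4 hydrolase, was the more abundant, at 126.0 ± 3.22 against 117.6 ± 6.03 CPM (edgeR adjusted p = 0.236).

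**Figure D3:**
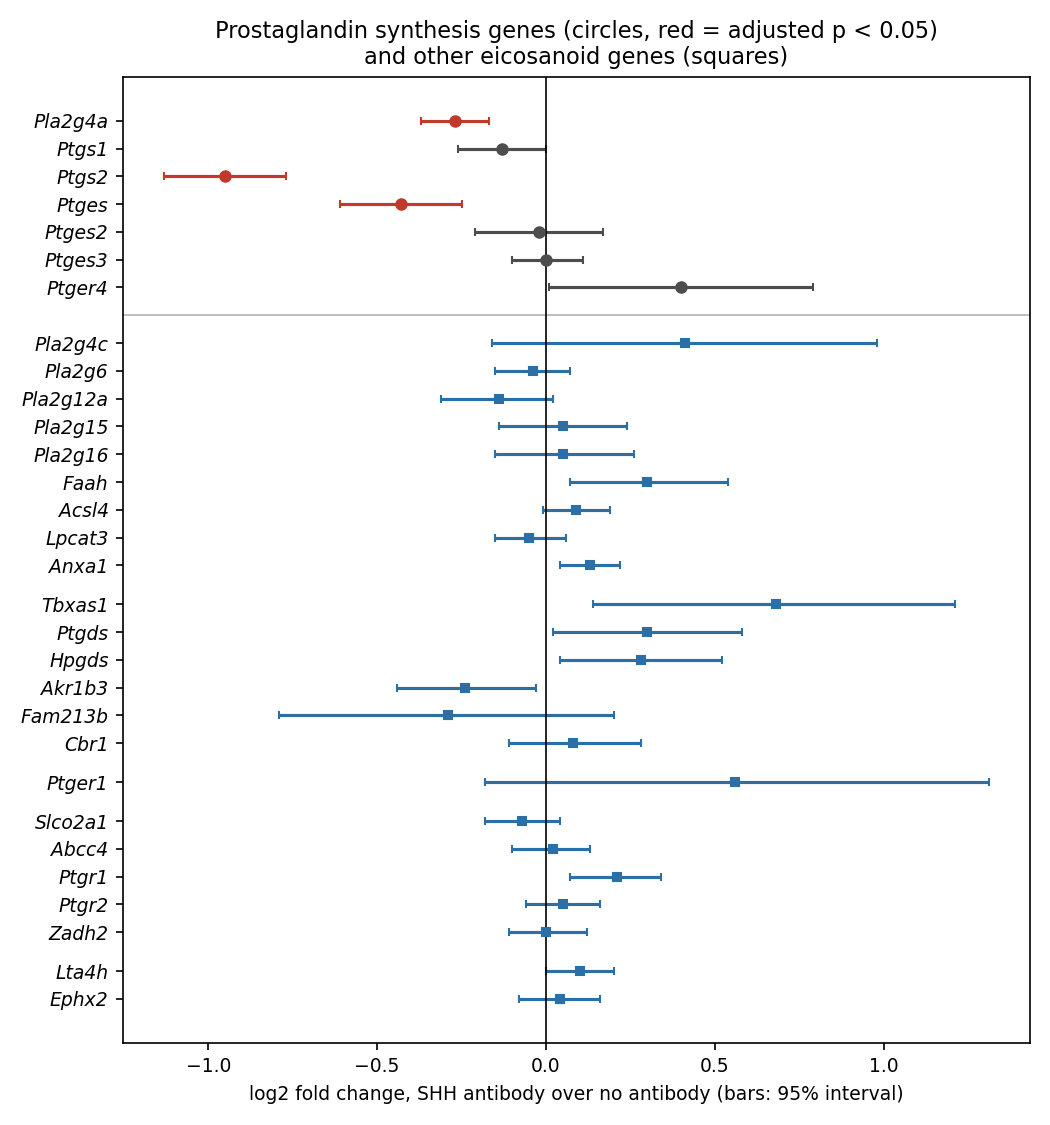
Log2 fold change, SHH antibody over no antibody, with its 95% interval, for the 7 prostaglandin synthesis genes tested (circles, red where called) and 23 other eicosanoid genes (squares, none called). Ptgs2 (-0.95), Ptges (-0.43) and Pla2g4a (-0.27) lie to the left of 0 with their whole intervals.

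Pla2g4a and Ptgs2 are neighbours. By the deposited coordinates, 138833 bases separate them on chromosome 1, on opposite strands, with no other protein-coding gene between. Between them lies a noncoding gene, 7530420F21Rik (named Ptgs2os in GENCODE M21, minus strand, 150074873 to 150099874), which runs the other way. Its start lies inside the 250-base stretch printed above, and a gap of 249 bases lies between the deposited spans of the pair.

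The noncoding transcript was lower with the antibody by about as much as Ptgs2. It had 22, 23, 28 and 18 counts with and 39, 28, 26 and 46 counts without the antibody. In CPM these were 1.42, 1.46, 1.84 and 1.21 against 3.04, 2.80, 2.44 and 3.15, with no overlap. The log2 fold change was -0.95 ± 0.20 SE (1.94-fold lower, 95% interval 1.45 to 2.59, edgeR adjusted p = 0.00394). It is not one of the 8 genes, but it was looked up because of Ptgs2, so it is no independent support for the fall of Ptgs2. Another noncoding gene near Ptgs2, Gm26687 (Ptgs2os2), had 1 to 4 counts per library and was not tested.

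The lower deposited coordinates of 15 tested genes, Ptgs2 included, lie within 2 Mb of that of Ptgs2. Of these 15 genes 4 were called, where 8.4% of all genes tested were. Of the 4, Ptgs2 and Pla2g4a were chosen on this contrast, so the count is no result about the region. The 4 were Pla2g4a, 7530420F21Rik, Ptgs2 and, further away, Fam129a (-0.19). The pseudogene Gm15453 (-0.12), BC003331 (-0.08) and the nuclear pore gene Tpr (0.11), which lie on the other side of Ptgs2, did not pass the test.

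**Figure D4:**
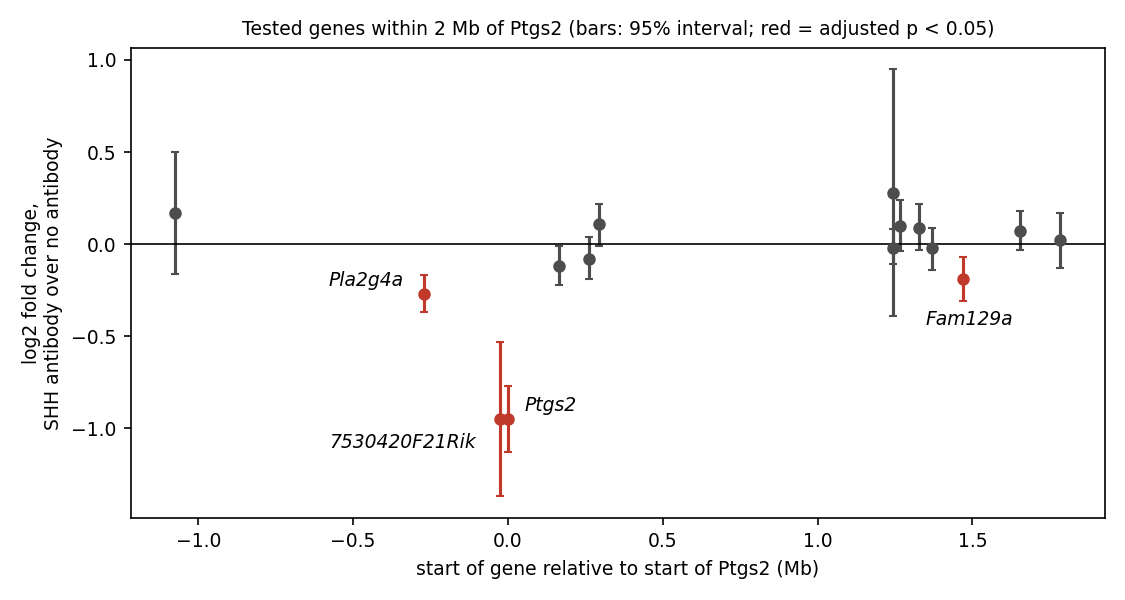
Log2 fold change, SHH antibody over no antibody, with its 95% interval, for the 15 tested genes within 2 Mb of Ptgs2. Distances are between the lower deposited coordinates, which for a gene on the minus strand is where it ends. Red marks called genes. Ptgs2 and 7530420F21Rik lie at the same value, -0.95, and Pla2g4a at -0.27.

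Transcripts of genes for proteins that bind AU-rich mRNA were listed because of the pentamers in Ptgs2. Of 10 listed and tested none was called (edgeR), where 8.4% of all genes tested were. At an unadjusted p under 0.05 there were 1 higher and 2 lower, again without a share of all genes to set beside them. The most abundant, Ybx1, stood at 787 ± 39.6 with and 802 ± 43.3 CPM without the antibody. Zfp36, which encodes tristetraprolin, a factor that destabilizes such mRNAs, was chosen after its values were seen and stood at 49.06 ± 6.92 against 57.09 ± 1.32 CPM (log2 fold change -0.22 ± 0.07 SE, adjusted p = 0.0708).

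The libraries had between 10009711 and 15733280 counts, with all antibody libraries above all the others (two-sided exact permutation p = 0.0286, the smallest that 4 against 4 can give). The part of depth in the members' differences was not tested. Mitochondrially encoded mRNAs took 6.21% of counts in replicate 1 without antibody and 3.94% to 4.77% in the other 7 libraries. The cells showed their epithelial label, with 1160 to 2130 CPM for each of the keratin genes Krt18, Krt19 and Krt8 and 801 to 922 CPM for Cdh1. Of 10 epithelial markers tested 1 was called, where 8.4% of all genes tested were. It was Epcam, which was higher with the antibody (log2 fold change 0.28, edgeR adjusted p = 0.022). Its call was lost on leaving out replicate 1, 3 or 4 of the antibody arm or replicate 3 or 4 of the other, each alone (edgeR adjusted p = 0.0587 to 0.0752). Of 9 acinar and endocrine markers 6 were at 0 in all libraries, among them Cpa1 and Ins2. In sorted bulk cells fewer cells that carry a transcript and less of it per cell cannot be told apart.

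Markers of the other cell types a sort could let through were measured as lists. The summed level of 20 stellate and fibroblast markers was 1445 to 1544 CPM with and 1462 to 1600 CPM without the antibody, most of it Vim (969 to 1142 CPM). Dcn and Lum were at 0 in all 8 libraries, and Col1a1 stood at 10.1 to 19.3 CPM. Of the 10 markers tested 2 were called, both lower with the antibody, where 3.87% of all genes tested were called as lower. These were Fbln2 (log2 fold change -0.42, edgeR adjusted p = 8.5e-06) and Pdgfra (-0.84, edgeR adjusted p = 0.00271). The tested markers not called were Col3a1 (0.66), Pdgfrb (0.61), Col1a2 (0.47), Col1a1 (0.36), Col6a3 (0.24), Col5a1 (0.07), Vim (0.06) and Sparc (-0.19). The list thus went in both directions, with the collagen genes and Pdgfrb on the higher side. Of 11 leukocyte markers 1 was tested and not called, Emr1 and Cd3e were at 0 in all libraries, and the summed level was 5.13 to 6.75 against 5.20 to 6.46 CPM. Of 6 endothelial markers 2 were tested and none was called, with sums of 12.9 to 14.5 against 11.7 to 13.3 CPM. When the summed stellate markers entered the fit as a covariate, the log2 fold change of Ptgs2 was -0.96, and Ptgs2, Ptges and Pla2g4a kept their calls. Most of that sum is Vim, with Dcn and Lum at 0, but between the arms the covariate does not simply follow Vim. Mean Vim was 1097 CPM with and 1056 CPM without the antibody, and mean Fbln2, itself called, was 227.7 and 305.5 CPM. The part of stellate cells let through the sort was not tested.

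Ptgs2, Ptges and Pla2g4a were called as lower in each of 19 alternative analyses, and the other 4 tested members in none. The log2 fold change of Ptgs2 lay between -1.05, without replicate 4 of the antibody arm, and -0.84, without replicate 1 of the other. For Ptges it lay between -0.48 and -0.33 and for Pla2g4a between -0.30 and -0.25. Ptger4 lay between 0.29 and 0.48 on leaving out single libraries, at 0.12 on log2(RPKM + 1), a pseudocount above its own level, and at 0.67 without replicates 1 and 4 of the no antibody arm.

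**Figure D5:**
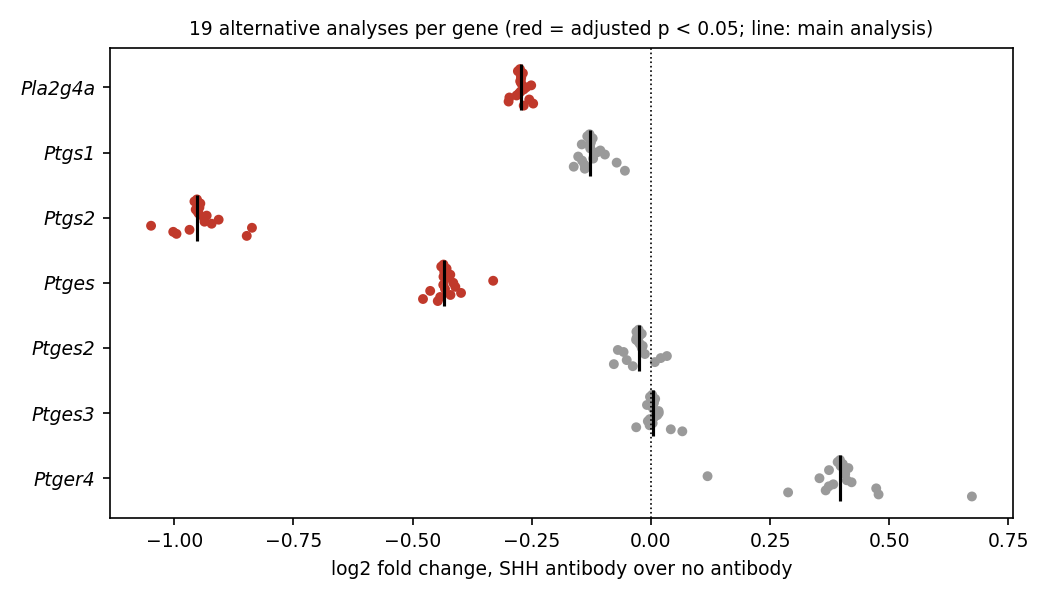
Log2 fold change, SHH antibody over no antibody, of the 7 tested genes in 19 alternative analyses (points, red where called) and in the main analysis (black line). All points of Ptgs2, Ptges and Pla2g4a are called, and those of Ptger4 spread from 0.12 to 0.67.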

How the data were processed

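Directional polyA libraries were read from both ends, per the labels' protocols. The submitters' processing notes name CASAVA 1.8.2, TopHat2 2.0.9 and GRCm38. Which tool counted the reads, on which annotation and with which strand setting, is not given in the sources used here. Raw counts per Ensembl gene and RPKM values were deposited by the authors. In 12005 of 12005 genes checked, the deposited RPKM was the count scaled by the library total and a whole-number gene length (within 0.01 bases).

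The test of the counts was that of edgeR 4.0.16 under R 4.3.3 (TMM, filterByExpr, quasi-likelihood F test, arm as the only term, Benjamini-Hochberg over 13626 genes, threshold 0.05), a procedure tested on simulated data. SEs come from the F statistic, and CPM are TMM-scaled counts. Alternatives used RLE or upper quartile scaling, other filters, a replicate block, a stellate marker covariate, DESeq2 1.42.0, limma 3.58.1 (voom, and log2(RPKM + 1) or log2(RPKM + 0.1)), and left out libraries.

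Members, lists and alternatives were chosen with earlier results of these data known. Every member is named. Of each list, called genes are named, otherwise the most abundant; genes beside a member and the 5 most like Ptgs2 are also named. Exceptions are marked. An allele of the cells' genotype is not reported here.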

Additional observations from a re-analysis of the deposited data

How the results depend on the processing

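The main analysis called 1144 genes. On log2(RPKM + 1) 675 were called and on log2(RPKM + 0.1) 670. Without replicates 1 and 4 of the no antibody arm together, 2263 of 13914 genes tested were called. Without a filter 1348 of 21392 were called, and with DESeq2 1026 of 13097. Leaving out single libraries gave 679 to 1485 (679 without replicate 2 and 695 without replicate 3 of the antibody arm). Of 58 other eicosanoid genes 0 were called in the main analysis, 1 without a filter (Ptgr1), 1 with DESeq2 (Anxa1), 5 without replicates 1 and 4 of the no antibody arm (Acsl4, Ptgr1, Hpgds and Anxa1 higher, Pla2g2d lower), and 0 to 4 without a single library; the cause was not tested. With the replicate block 1005 genes were called, 977 of them shared with the main analysis, and the 3 called members kept their calls. Libraries with the same replicate number shared no deviation from their arm means (correlations -0.029 to 0.007). These correlations cannot show whether such cultures were set up together. No member reversed a call. Ptgs2 and Ptges kept theirs in all 19 alternatives, as did Pla2g4a. Depth limits Hpgd (0 to 4 counts) and Ptger4 (17 to 45 counts).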

Other observations

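Over the 8 libraries the genes whose log2 CPM was most like that of Ptgs2, among 9947 genes whose mean reached 5 CPM, were F2r, a thrombin receptor gene (Pearson r = 0.99), Hbegf, an EGF receptor ligand gene (0.989), Cxcl5, a neutrophil chemokine gene (0.986), Ereg, the epiregulin gene (0.978), and Tnfaip3, which encodes the NF-kB inhibitor A20 (0.977). Their log2 fold changes, antibody over none, were -0.17, -0.48, -0.90, -0.52 and -0.50. Ptges ranked 9th by this measure (0.975), Pla2g4a 298th (0.861) and Ptgs1 609th (0.782), while Ptges2 (0.056) and Ptges3 (0.019) showed little likeness. These values are a description over 8 libraries that fall into separate arms for Ptgs2, and they carry no test. Without replicates 1 and 4 of the no antibody arm the 5 most alike were Ptpn22, Nup93, Fn1, Nmt1 and Csgalnact1, and among the members Ptges ranked 32nd (0.979), Pla2g4a 146th (0.953) and Ptgs1 2692nd (0.557), with Ptges2 at -0.129 and Ptges3 at -0.497. The ranks of the members thus moved with these libraries.

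Within the arms, on deviations from each arm's mean, the order was another one. The 5 genes most like Ptgs2 were then Pbk (0.988), Atad5 (0.987), Mapk8 (0.982), Lsm1 (0.973) and Gla (0.966). Among the members Ptgs1 (0.832) and Ptges (0.768) came closest, and Pla2g4a (-0.143) did not follow Ptgs2. Replicate 1 without antibody was the highest library for Ptgs2, Ptgs1 and Ptges.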
